A study of Mus musculus with 3 samples.

Results

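The RNA levels described here are those of 7 genes that set, copy or guide cytosine methylation: Dnmt1, Dnmt3a, Dnmt3b, Dnmt3l, Uhrf1, Uhrf2 and Trdmt1. They were taken from the non-control spots of the arrays by the name printed in the files or by the current symbol behind the probe's accession or an older name. All 7 were found, with 12 probes among the 41174 of the array: 3 for Dnmt3a, 3 for Uhrf2, 2 for Uhrf1 and 1 for each of the others. Trdmt1 stands on the array under its former name Dnmt2. Each probe has 1 spot per array.

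The samples were mouse embryonic stem (ES) cells, cells that can form every tissue of the embryo, measured on 1-colour Agilent oligonucleotide arrays. Of the samples 2 are labelled Tet1 KO, with the numbers 4 and 22 (KO 4 and KO 22), and the control is labelled Tet1 WT (WT), with 1 array each. All 3 share the V6.5 cell line of mixed 129/C57BL6 background, culture in medium containing the cytokine LIF on irradiated feeder cells, and a preplating step before RNA extraction. The labels do not tell whether KO 4 and KO 22 are separate clones or cultures, so p-values measure only the spread between these samples, and WT has no replicate.

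Methyl groups on the cytosine of CpG dinucleotides help to keep genes silent. Dnmt3a and Dnmt3b place new methyl groups, and Dnmt3l, which has no catalytic activity of its own, assists them. Uhrf1 recognises the CpG sites that carry a methyl group on only the parental strand after replication and brings Dnmt1 there to complete the copy. Tet1 works against these enzymes by oxidising 5-methylcytosine. In mouse ES cells the short isoform of Dnmt3a, which starts inside the gene, is the main product of that gene.

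Intensities are those of the scanner software after background subtraction. The arrays differed in overall brightness, with a 75th percentile of 717.7 on KO 4, 644.9 on KO 22 and 623.7 on WT, so comparisons use log2 of the intensity minus log2 of that percentile, called the scaled level. Of the 43379 non-control spots 62.2% to 62.8% were well above background. Repeated spots of a probe had a median SD of 0.056 to 0.070 on the log2 scale within an array. Differences are Tet1 KO minus WT with the standard error of limma's fit (n = 2 against 1). All 12 probes were well above background on all 3 arrays, and 0 were saturated, marked as outliers or replaced by surrogates. No spot bright on 1 array alone lay within 2 rows and columns of any of them. The probe for Tet1 itself read 214 on KO 4 and 195 on KO 22, against 721 on WT. Its level fell by 1.94 ± 0.09 on the log2 scale (limma adjusted p = 0.0477). That call was lost after quantile normalization, without a filter on dim probes, and with 1 probe or the mean of probes per gene. No label places the deleted part of Tet1, so this probe may lie outside it.

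Dnmt3a had the largest differences among the 7 genes, at about 2-fold lower scaled levels in the Tet1 KO samples on each of its 3 probes. The 5′ to 3′ order of the probes on the gene, on build mm7 of the array files, is A_52_P76146, A_52_P169048 and A_52_P30497. All lie on the plus strand of chromosome 12, with their starts within 5722 bases of each other. The first covers chr12:3825243-3826024, which is 782 bases of genome against 60 for each of the other Dnmt3a probes. Whether it crosses an exon junction was not tested. The second lies at chr12:3826602-3826661 and the third at chr12:3830965-3831024. No annotation of this build was used here, so the exon or untranslated region they fall in is not named. The array annotation lists several Dnmt3a transcripts for each of the 3 probes, so none of them is taken here to read 1 isoform alone.

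The RefSeq table of build GRCm38.p6 gives Dnmt3a more than 1 start site, and the stretches upstream of the first start and of the start furthest inside the gene are shown because the probes cannot say which was in use. Each line has the 250 bases before the start, on the plus strand, with every CpG in capitals.
Dnmt3a first start, chr12:3806730-3806979: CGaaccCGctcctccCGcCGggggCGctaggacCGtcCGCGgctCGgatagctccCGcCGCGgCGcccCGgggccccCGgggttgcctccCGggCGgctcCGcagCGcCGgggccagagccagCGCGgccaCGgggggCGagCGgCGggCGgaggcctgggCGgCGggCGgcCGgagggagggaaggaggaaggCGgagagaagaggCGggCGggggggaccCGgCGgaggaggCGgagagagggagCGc
Dnmt3a inner start, chr12:3891494-3891743: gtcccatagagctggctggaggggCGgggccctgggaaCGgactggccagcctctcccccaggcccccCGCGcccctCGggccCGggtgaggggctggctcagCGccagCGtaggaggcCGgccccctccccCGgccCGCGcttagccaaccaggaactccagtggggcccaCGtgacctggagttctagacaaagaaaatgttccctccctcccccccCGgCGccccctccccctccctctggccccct
The first stretch holds 38 CpG and the inner one 15, against a median of 6 over 32851 windows of the same length in the table. Fewer CpG than in the first stretch were found in 98.1% of windows, and fewer than in the inner one in 72.7%. These are reference letters. Methylation was not measured on these arrays.

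The first Dnmt3a probe, A_52_P76146, read 1498 on KO 4 and 1091 on KO 22, against 2572 on WT. A_52_P169048 read 1088 on KO 4 and 769 on KO 22, against 1775 on WT. The dimmest of the 3, A_52_P30497, read 179 on KO 4 and 147 on KO 22, against 277 on WT. On every probe both knockout arrays lay below WT, with KO 22 the lower of the pair, so the groups did not overlap. With 1 WT array this was common, as both knockout arrays lay below WT on 43.6% of all probes tested.

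On the scaled log2 levels the differences were -1.13 ± 0.17 for A_52_P76146, -1.08 ± 0.19 for A_52_P169048 and -0.90 ± 0.11 for A_52_P30497. The knockout mean thus stood at 45.5%, 47.2% and 53.6% of the WT level on the 3 probes, in the same order. None passed the threshold of 0.05 (limma adjusted p = 0.0981, 0.107 and 0.0929). Their 95% intervals from the same fit ran from -1.66 to -0.61, from -1.66 to -0.50 and from -1.24 to -0.56, none of which includes 0. The interval excluded 0 for 27.8% of all probes tested. Each Dnmt3a difference was further below 0 than nearly all of the 26546 probes tested, with 1.42%, 1.57% and 2.18% of those at the same difference or lower. Both arrays stood at least 2-fold below WT on 1.35% of probes, and on 0 of the 3 for Dnmt3a, because KO 4 reached -0.98, -0.91 and -0.83. KO 22 reached -1.29, -1.25 and -0.96.

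**Figure D1:**
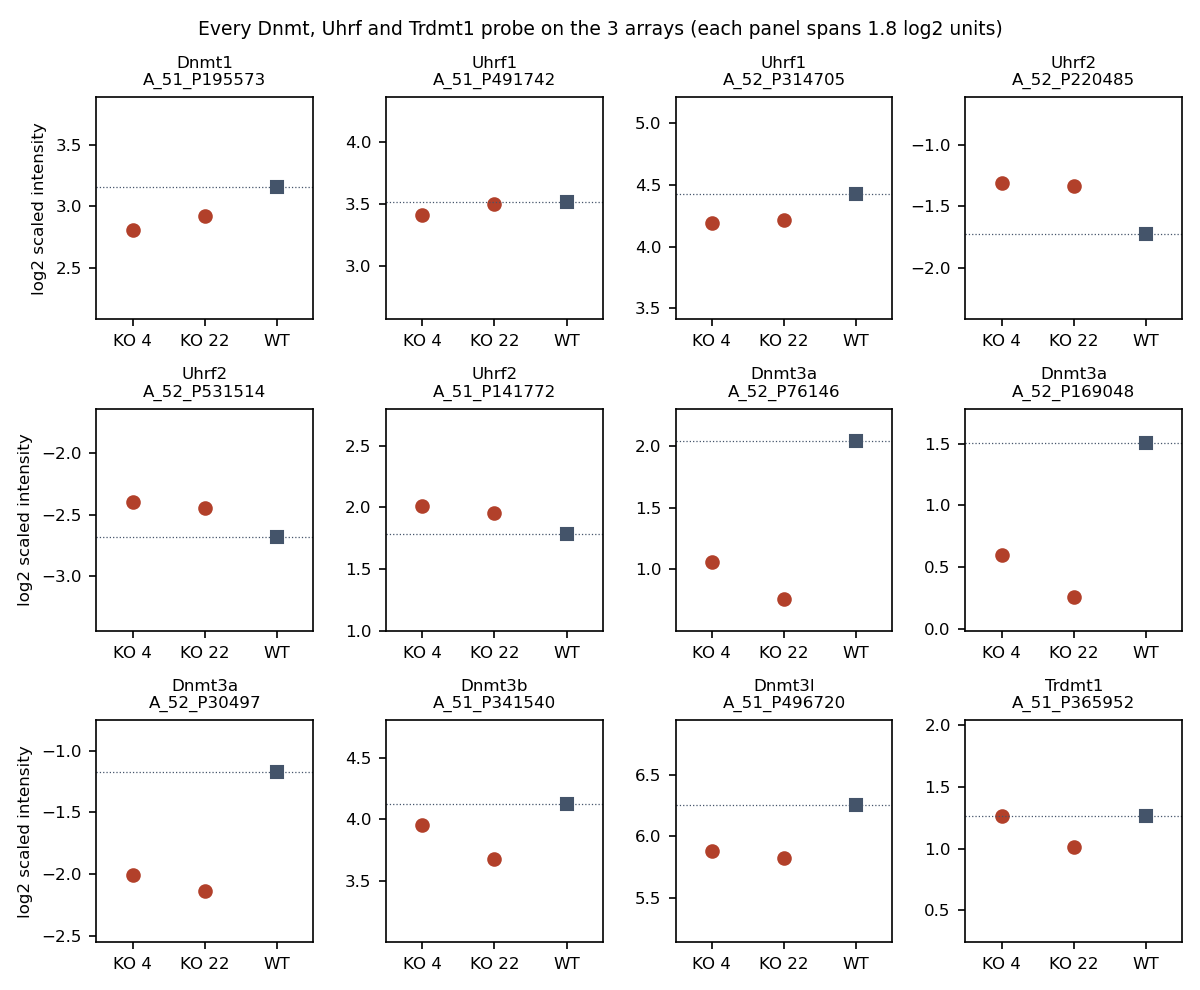
Scaled log2 intensity of each of the 12 probes on KO 4, KO 22 (circles) and WT (square, with a dotted line at its level), 1 panel per probe, each spanning the same number of log2 units. The 3 Dnmt3a probes show the largest gaps, with WT at 2.04 and the knockout arrays at 1.06 and 0.76 on A_52_P76146.

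The call for Dnmt3a turned on how the spread was modelled and which values were used. All 3 of its probes passed with the filter tightened to every array (limma adjusted p = 0.0371, 0.0429 and 0.0335), in the deposited series matrix values (0.0271, 0.0306 and 0.0272) and with an intensity trend in eBayes (0.00229, 0.00343 and 0.00367). Of all probes 7.38%, 7.52% and 19.7% passed in those fits. Over every processing tried the adjusted p of A_52_P76146 ran from 0.000783 to 0.19, and its sign never changed.

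Dnmt3b and Dnmt3l, the partners of Dnmt3a in placing new methylation, had smaller differences in the same direction. The Dnmt3b probe (A_51_P341540, chr2:153428204-153428263, mm7) read 11139 on KO 4 and 8240 on KO 22, against 10898 on WT. Before scaling KO 4 lay above WT and KO 22 below it, and after scaling both lay below. The scaled differences were -0.17 on KO 4 and -0.45 on KO 22, with a mean of -0.31 ± 0.16 and a 95% interval from -0.81 to 0.19 (limma adjusted p = 0.31). The interval includes 0 and also values near the smallest of the Dnmt3a differences. The array annotation lists 4 Dnmt3b transcript variants for this probe, so it reads them together. A predicted gene on the array described as similar to Dnmt3b (LOC668932) was not well above background on any array, with 2.88 on KO 4, 2.58 on KO 22 and 2.21 on WT.

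Dnmt3l was among the bright probes and was lower on both knockout arrays. Its probe (A_51_P496720, chr10:77717971-77718030, mm7) read 42279 on KO 4 and 36552 on KO 22, against 47572 on WT. The scaled differences of -0.37 and -0.43 lay close together, and the mean of -0.40 ± 0.10 corresponds to 75.7% of the WT level. It did not pass (limma adjusted p = 0.134). Its 95% interval from -0.70 to -0.10 does not include 0, which was so for 27.8% of all probes tested. With an intensity trend Dnmt3l passed at 0.014, and in the series matrix values it did not, at 0.0926. The 3 RefSeq starts of Dnmt3l have 3 to 5 CpG in the 250 bases before them, unlike the CpG-dense stretches of Dnmt3a, and the first is shown for contrast with the CpG in capitals.
Dnmt3l first start, chr10:78042037-78042286, GRCm38.p6, plus strand: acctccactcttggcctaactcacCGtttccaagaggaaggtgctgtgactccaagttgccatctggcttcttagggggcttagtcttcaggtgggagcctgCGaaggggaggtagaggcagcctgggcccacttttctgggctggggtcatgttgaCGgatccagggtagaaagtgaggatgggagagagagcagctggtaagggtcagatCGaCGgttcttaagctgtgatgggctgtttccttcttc

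**Figure D2:**
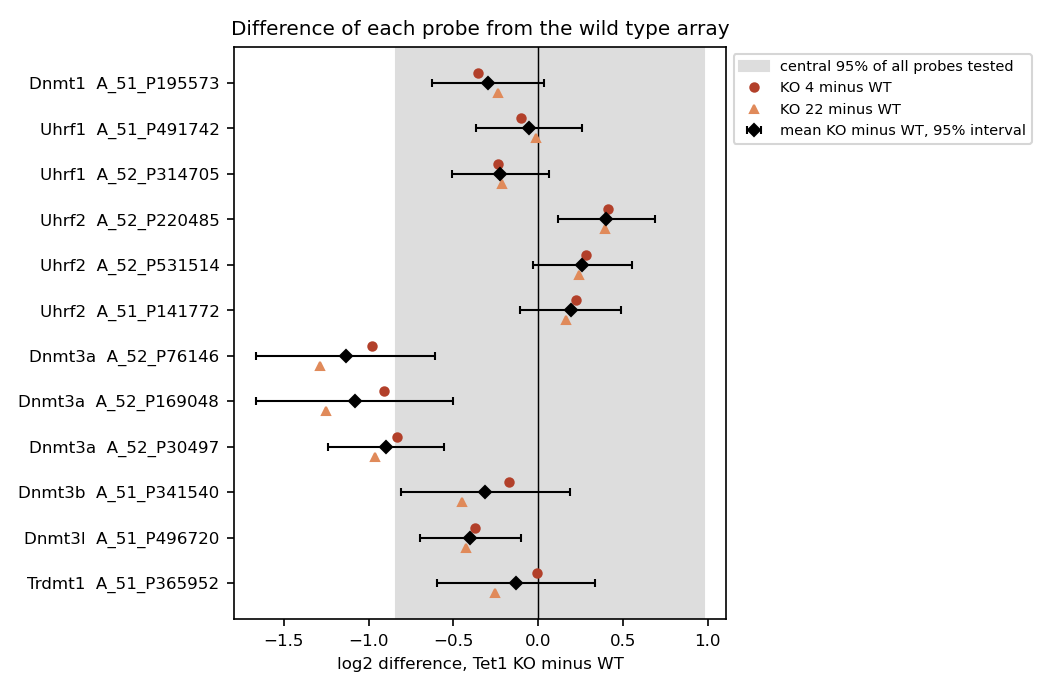
Log2 difference from WT of each probe for KO 4 (circles), KO 22 (triangles) and their mean (diamonds, with limma's 95% interval), over a grey band that holds the central 95% of the 26546 probes tested, from -0.84 to 0.98. The means of the 3 Dnmt3a probes lie below the band, the 3 Uhrf2 probes lie above 0 and the remaining means lie between -0.40 and -0.06.

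The genes that copy methylation after replication had smaller differences than Dnmt3a. The probe of Dnmt1, the maintenance enzyme, covers chr9:20784085-20784453 on the minus strand (A_51_P195573, mm7). It read 5025 on KO 4 and 4894 on KO 22, against 5577 on WT. The scaled differences were -0.35 and -0.24, with a mean of -0.30 ± 0.11 that did not pass (95% interval -0.63 to 0.04, limma adjusted p = 0.207). With an intensity trend it narrowly passed (0.0498).

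Uhrf1, which brings Dnmt1 to newly replicated sites, has 2 neighbouring probes whose starts are 103 bases apart on chromosome 17. A_51_P491742 (chr17:54481380-54481439) read 7646 on KO 4 and 7308 on KO 22, against 7122 on WT, so it was slightly above WT before scaling. A_52_P314705 (chr17:54481483-54481542) read 13132 on KO 4 and 11977 on KO 22, against 13427 on WT. The scaled means were -0.056 ± 0.10 (95% interval -0.37 to 0.26, limma adjusted p = 0.754) and -0.22 ± 0.09 (-0.51 to 0.06, adjusted p = 0.238). The first changed sign to 0.0056 after quantile normalization, so no direction can be given for it.

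Dnmt1 and Uhrf1 share a sequence feature at 1 start each. The letters TTTCGCGC are a form of the site bound by the E2F factors that drive S phase genes. They occur on 1 strand or the other in the 250 bases before that start. In both genes it is the RefSeq start furthest inside the gene, so the stretch may lie within a transcript from an outer start. TTTCGCGC was found in 0.256% of all 32851 windows of that length, and it or the related TTTGGCGC or TTTCCCGC in 1.53%, over both strands and counting overlaps once per window. No other of the 14 windows of the 7 genes held any of the 3. These letters themselves hold CpG, and both windows are CpG-dense, with 26 CpG for Dnmt1 and 30 for Uhrf1. Fewer CpG were found in 90.4% and 94.1% of windows, and the share with a match among windows of like CpG count was not tested. Capitals mark the match, and both lines read in the direction of the gene.
Dnmt1, chr9:20952624-20952873, GRCm38.p6, minus strand: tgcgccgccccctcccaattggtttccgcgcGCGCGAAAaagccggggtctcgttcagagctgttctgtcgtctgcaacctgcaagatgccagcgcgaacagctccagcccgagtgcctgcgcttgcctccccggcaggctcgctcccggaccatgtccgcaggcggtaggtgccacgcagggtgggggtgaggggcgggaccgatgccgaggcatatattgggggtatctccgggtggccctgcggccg
Uhrf1, chr17:56304063-56304312, GRCm38.p6, plus strand: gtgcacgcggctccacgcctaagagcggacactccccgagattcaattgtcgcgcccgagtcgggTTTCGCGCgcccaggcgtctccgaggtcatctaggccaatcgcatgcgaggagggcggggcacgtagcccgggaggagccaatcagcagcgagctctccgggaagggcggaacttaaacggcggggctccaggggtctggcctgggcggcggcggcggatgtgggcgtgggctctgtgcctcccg
A match is a run of letters and not a measured binding site.

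Uhrf2, the paralog of Uhrf1, was the 1 member of the 7 with higher scaled levels in both Tet1 KO samples, on all 3 of its probes. The probes are given in order along the plus strand of chromosome 19 on mm7. A_52_P220485 (chr19:29756122-29756181) read 289 on KO 4 and 256 on KO 22, against 189 on WT. A_52_P531514 (chr19:29757982-29758041), designed on a thymus cDNA clone, read 136 on KO 4 and 118 on KO 22, against 96.9 on WT. A_51_P141772 (chr19:29793312-29793371) read 2888 on KO 4 and 2494 on KO 22, against 2152 on WT. Both knockout arrays exceeded WT on each probe, as they did on 39.9% of all probes tested, and KO 4 was the higher of the pair.

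The scaled differences of Uhrf2 were 0.40 ± 0.09, 0.26 ± 0.10 and 0.19 ± 0.10 in that order, or 1.32-fold, 1.2-fold and 1.14-fold. None passed (limma adjusted p = 0.129, 0.206 and 0.295). The first passed with an intensity trend (0.0344) and not in the series matrix values (0.11).

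Trdmt1, which resembles the DNA methyltransferases but methylates a cytosine in transfer RNA, differed by less than its error. Its probe (A_51_P365952, chr2:13450524-13450583, minus strand, mm7) read 1725 on KO 4 and 1301 on KO 22, against 1504 on WT. The scaled difference was -0.0049 on KO 4 and -0.26 on KO 22, with a mean of -0.13 ± 0.15 (95% interval -0.60 to 0.34, limma adjusted p = 0.612).

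Of the 12 probes 0 passed in limma, where 0.332% of all probes did (0.355% with 1 probe per gene), and 5 had an unadjusted p below 0.05 (3 of Dnmt3a, 1 of Dnmt3l and 1 of Uhrf2), where 27.8% of all probes did. Both knockout arrays lay below WT for 9 of the 12, against 43.6% of all probes, and above it for 3, against 39.9%. The median difference of the 12 was -0.26, against -0.013 over all probes tested. With other processing 4 of the 12 passed with normexp background correction, where 17.9% of all probes did, 5 without 5 spots far dimmer than their background (18.8%), and 6 with the intensity trend. It was 0 with quantile normalization (0.286%), median scaling (0.445%) and no filter on dim probes (0%). Probes of 1 gene read the same transcripts and are not independent. Bright probes ran slightly low as a group, with a median difference of -0.064 among the 10% brightest, where Uhrf1, Dnmt3b and Dnmt3l lie. Among probes of like brightness, taken in 10 equal groups, differences as low as those of Dnmt3a were reached by 0.339%, 0.264% and 1.28% of probes. A difference as low as that of Dnmt3l was reached by 3.73%, of Dnmt3b by 10.6%, of Dnmt1 by 15.8% and of Trdmt1 by 35.5%. For the Uhrf1 probes the shares were 52.2% and 20.8%. Differences as high as those of Uhrf2 were reached by 13.9%, 26.4% and 19.3%. In bulk RNA fewer cells of a type and less RNA per cell cannot be told apart.

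**Figure D3:**
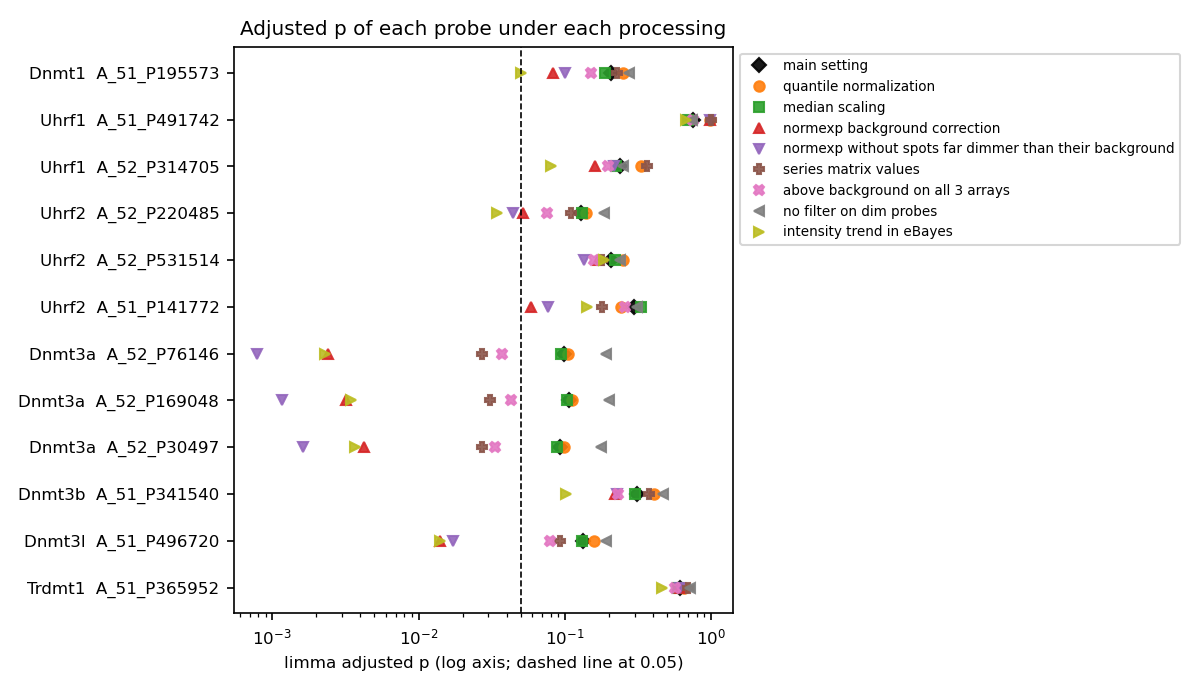
Limma adjusted p of each probe (log axis, dashed line at 0.05) under the reported setting (black diamonds) and 8 other ways of processing. The Dnmt3a probes spread across the line from 0.000783 to 0.2, whereas those of Uhrf1, Dnmt3b and Trdmt1 stay to its right throughout.

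The knockout samples were not identical for these genes. KO 4 exceeded KO 22 on 9 of the 12 probes, most on A_52_P169048 of Dnmt3a (by 0.35), A_52_P76146 of Dnmt3a (0.30), Dnmt3b (0.28) and Trdmt1 (0.25). Over all probes tested the SD of that difference was 0.32. KO 4 also had more signal of fibroblast (feeder) markers, whose 21 genes had a median difference from WT of 0.66 on KO 4 and -0.08 on KO 22. All 21 were well above background on all 3 arrays, with 8 higher and 4 lower on both knockout arrays. Their summed scaled level in log2 was 6.32 on KO 4 and 5.97 on KO 22, against 5.78 on WT. This sum gives more weight to bright genes, and Tagln was the brightest of the 21 on both knockout arrays. The higher sum on KO 22 is therefore not shown for the list as a set, whose median there was -0.08. Tagln, a smooth muscle and fibroblast actin-binding gene, read 19585 on KO 4 and 12006 on KO 22, against 5090 on WT, and Pdgfra, a receptor gene of such cells, read 15.8 on KO 4 and 10.3 on KO 22, against 22.4 on WT. The collagen gene Col5a1 and the mesenchymal factor gene Twist2 stood at 0.85 ± 0.27 and 0.74 ± 0.37, and limma called 0 of the 21. With the filter tightened to every array Tagln passed (limma adjusted p = 0.0456). Col5a1 differed from WT by 1.12 on KO 4 and 0.59 on KO 22, and Twist2 by 1.11 on KO 4 and 0.37 on KO 22. The part of feeder RNA in the differences of the 7 genes was not tested. Of 12 ES cell markers all were well above background on every array, and their summed log2 level was 9.57 on KO 4 and 9.79 on KO 22, against 9.69 on WT. By far the brightest was Dppa5a, which read 335894 on KO 4 and 382349 on KO 22, against 336248 on WT. The sum mainly follows that gene and does not show a shift of the marker set. On both knockout arrays 3 of the 12 were higher and 8 lower, with a median difference of -0.13. The pluripotency factor genes Pou5f1, Lin28a and Esrrb stood at -0.47 ± 0.09, -0.43 ± 0.09 and -0.47 ± 0.09, and Klf4 at 0.40 ± 0.09. Limma called 0 of the 12.

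Genes that act beside the methyltransferases were followed as lists, each gene by its brightest probe. Calls given for the lists are those of the reported fit unless another is named. With the filter tightened to every array limma called 17 list genes, where 7.38% of all probes passed. With an intensity trend it called 57, and among all 17728 genes it called 1672 higher and 2165 lower. Over all 17728 genes the median difference was -0.027, both knockout arrays lay below WT for 45.5% and above it for 38%. Among 21 partners in maintenance and targeting, limma called 0, with 7 higher and 11 lower on both arrays and a median of -0.04. Dppa3 encodes Stella, which keeps Uhrf1 off chromatin. It read 16155 on KO 4 and 13861 on KO 22, against 6920 on WT, a difference of 0.99 ± 0.10 that did not pass (limma adjusted p = 0.0888) but did so with the filter tightened to every array (0.0309). Trim28, the corepressor that protects imprints, stood at -0.48 ± 0.09 (adjusted p = 0.114), Zfp445, an imprint-binding zinc finger gene, at -0.54 ± 0.11 (0.119), and Setd2, a histone H3 methyltransferase, at 0.36 ± 0.09 (0.145).

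Among 12 genes of oxidation and removal of 5-methylcytosine, Tet1 was the only one called, and 8 were lower and 2 higher on both knockout arrays. The repair genes Apex1 and Ung stood at -0.44 ± 0.10 and -0.38 ± 0.11 (limma adjusted p = 0.126 and 0.16) and Xrcc1 at -0.27 ± 0.13 (0.284). Of 16 genes of the methionine cycle and its folate supply, which make the methyl donor, 12 were lower and 4 higher on both arrays and limma called 0. The median was -0.18. Mthfd2, a mitochondrial folate enzyme, stood at -0.55 ± 0.09 (limma adjusted p = 0.105, and 0.0493 with the filter tightened to every array). The amino acid transporter gene Slc7a5 stood at -0.49 ± 0.09 and the threonine dehydrogenase gene Tdh at -0.38 ± 0.13 (0.114 and 0.186).

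Beside Trdmt1, the list of RNA cytosine methyltransferases and queuine tRNA modification had 10 of 10 measured genes lower on both arrays, with a median of -0.22 and 0 called. Nsun6, Nsun4, Nop2 and Nsun5, all RNA methyltransferases, had differences from -0.47 for Nsun6 to -0.33 for Nsun5. Among 22 S phase genes 20 were lower and 1 higher, with a median of -0.28 and 0 called. With an intensity trend 10 of them were called lower and 0 higher. The cyclin gene Ccne1 read 45060 on KO 4 and 39015 on KO 22, against 63424 on WT, a difference of -0.72 ± 0.10 (limma adjusted p = 0.0941). Ccne1 passed with the filter tightened to every array (limma adjusted p = 0.0371). The helicase gene Mcm2, the transcription factor gene E2f1 and the histone chaperone gene Chaf1a stood between -0.49 and -0.47.

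Dnmt3a and Dnmt3b are normally higher in the formative and primed states that follow the naive ES cell state. Of 15 formative and primed markers 6 were higher and 8 lower on both arrays, with a median of -0.09 and 0 called. With an intensity trend 4 of them were called higher and 5 lower. Otx2, a transcription factor gene of that transition, read 56.1 on KO 4 and 43.3 on KO 22, against 185 on WT, a difference of -2.03 ± 0.14 (limma adjusted p = 0.0673). Sall2 stood at 1.08 ± 0.11, the keratin gene Krt18 at 0.94 ± 0.11 and T (brachyury) at 1.04 ± 0.27 (0.0888, 0.0917 and 0.145), so named members went both ways. With the filter tightened to every array Otx2, Sall2 and Krt18 passed (limma adjusted p = 0.0206, 0.0309 and 0.0335) and T did not (0.0696). T was dim, at 37.7 on KO 4 and 23.5 on KO 22, against 12.4 on WT. With normexp background correction the difference was 0.19 for T and -0.96 for Otx2. Of 12 naive regulators 5 were higher and 5 lower, with a median of 0.02. Klf4 stood at 0.40 ± 0.09, and Tbx3, Esrrb and Prdm1 at -0.50 ± 0.10, -0.47 ± 0.09 and -0.36 ± 0.10, none of which passed (limma adjusted p from 0.114 to 0.148).

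Germline genes whose CpG-rich promoters are commonly kept silent by methylation were listed as known targets. Like the other lists, this one was chosen with earlier results of these data known, so its counts are not an independent check. Of 20 measured 15 were lower and 3 higher on both knockout arrays, with a median of -0.38 and 0 called. With an intensity trend 10 of them were called lower and 0 higher. Of the 20, 18 were well above background on all 3 arrays, so they were not all silent genes in these cells. Syce1, a component of the meiotic synaptonemal complex, read 796 on KO 4 and 713 on KO 22, against 1560 on WT, a difference of -1.18 ± 0.09 (limma adjusted p = 0.0776). Dpep3, Slc25a31 and Mov10l1 stood at -1.92 ± 0.36, -1.25 ± 0.10 and -0.77 ± 0.12 (0.11, 0.0774 and 0.0981). With the filter tightened to every array Syce1, Dpep3, Slc25a31 and Mov10l1 passed (limma adjusted p = 0.0256, 0.0432, 0.0256 and 0.0397). Dpep3 was dim, at 16.2 on KO 4 and 23.9 on KO 22, against 68.5 on WT. Slc25a31 read 33.5 on KO 4 and 28.7 on KO 22, against 67.8 on WT. With normexp background correction the differences of Dpep3 and Slc25a31 were -0.55 and -0.36. Methylation of these genes was not measured here.

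**Figure D4:**
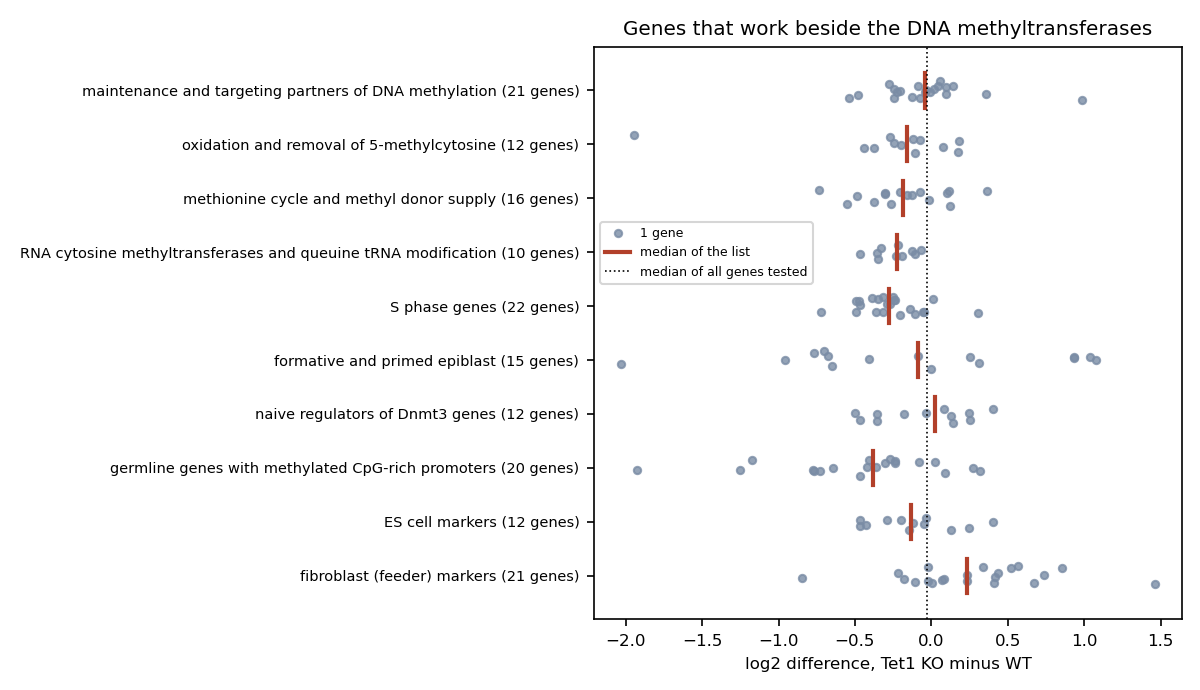
Log2 difference, Tet1 KO minus WT, of every measured gene in 10 lists (points, with random vertical spread), with the median of each list as a bar and the median of all genes tested, -0.027, as a dotted line. The medians run from -0.38 for the germline list to 0.23 for the fibroblast list, and Tet1 at -1.94 and Otx2 at -2.03 lie far from their lists' medians.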

How the data were processed

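RNA of 2 Tet1 KO samples and 1 Tet1 WT sample was hybridised to 1 array each, all on 1 slide. The deposited scanner files hold spot intensity made with Agilent Feature Extraction 10.1.1.1, background-subtracted and detrended within the array with dim values replaced by surrogates, and positions on mm7, per the file headers. The value table deposited beside them is on a log2 scale, with a median of 5.52 in each column and a correlation of 0.991 to 0.993 with the log2 mean spot intensity. Its background correction could not be settled. Limma is the only tool that the submitters' processing notes name.

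Control spots and spots flagged as outliers were left out and repeated spots averaged. Of 41174 probes 32719 (79.5%) were matched to RefSeq names. The 26546 probes well above background on at least 1 array were fitted with limma 3.58.1 in R 4.3.3 (lmFit, eBayes) and adjusted by Benjamini-Hochberg over all of them. The fit has 1 residual degree of freedom, from the knockout pair, and 3.25 after moderation, and WT is assumed to vary alike. Moderation sets a shared minimum standard error of 0.09. The fit was tested on simulated data. It called 0 of 67 probes given a log2 change of 1 and 39 of 67 given a change of 2. With an intensity trend these were 48 and 60. A 2-fold change that does not pass in the reported fit is therefore not shown to be absent. Of 66 probes given a change of 4, 63 were called, and 61 with the trend. Among 26346 unchanged probes 11 were called, and 48 with the trend. In both fits unchanged probes thus made up a larger share of the calls than the adjusted p threshold. That share was larger with the trend, so a call gained with it is weaker evidence than its adjusted p states. Whether these counts hold for the real arrays, where the changed probes are unknown, was not tested. Precision is limited by having 3 arrays.

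The members and lists were chosen with earlier results of these data known. The text names every member probe, Tet1 and of each list up to 4 genes with the largest difference among those detected on every array and on 1 side of WT in both knockout samples, and, for the member probe with the largest difference, the 4 other genes nearest in both differences. LOC668932 was named after its values were seen. Of the genes this rule names, 1 is not reported here. Scaling, background correction, filter, variance model and the feature tested were varied. The letters before start sites are RefSeq's, build GRCm38.p6.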

Additional observations from a re-analysis of the deposited data

How the results depend on the processing

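No paired analysis was possible because the groups share no replicate number and WT is 1 array. Among the tested alternative values of the member probes 88 kept their sign and their side of the threshold, 21 gained a call and 1 changed sign. Uhrf1 A_51_P491742 turned to 0.0056 after quantile normalization. The calls gained were those of Dnmt3a A_52_P76146, A_52_P169048 and A_52_P30497 at -1.03, -0.99 and -0.58 with normexp, at -1.09, -1.06 and -0.70 with normexp without 5 spots far dimmer than their background, at -1.11, -1.10 and -0.85 in the series matrix values, and at -1.13, -1.08 and -0.90 with an intensity trend or a filter on all 3 arrays. Dnmt3l gained one at -0.37 with either normexp and at -0.40 with the trend. Uhrf2 A_52_P220485 gained one at 0.29 with normexp without the 5 spots and at 0.40 with the trend, and Dnmt1 at -0.30 with the trend. The cause was not tested. Member probes called numbered 0 as reported, 4 with normexp, 5 with normexp without the 5 spots, 3 in the series matrix values, 3 with the filter on all 3 arrays and 6 with the trend, where 17.9%, 18.8%, 7.52%, 7.38% and 19.7% of all probes were called. In the same order all probes called numbered 88, 4748, 4985, 1997, 1814 and 5229, and list genes called numbered 1, 54, 50, 15, 17 and 57. Without a filter limma called 0 of 41135 probes and 0 list genes, and quantile normalization, 1 probe per gene and the mean of probes per gene each called 0 list genes. Of all probes called, 14 were higher and 74 lower as reported, 31 and 87 with median scaling, 10 and 66 with quantile normalization, 2280 and 2468 with normexp, 2420 and 2565 without the 5 spots, and 2463 and 2766 with the trend. The balance turned in the series matrix values (1059 higher, 938 lower) and with the filter on all 3 arrays (1065 higher, 749 lower). Without KO 4 the Dnmt3a differences were -1.29, -1.25 and -0.96, and without KO 22 -0.98, -0.91 and -0.83, values with no test.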

Other observations

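Among 16407 other genes above background on all 3 arrays, those nearest to the Dnmt3a probe A_52_P76146 in both differences were Trim12a, a tripartite-motif gene (larger gap 0.0058), Cass4, which encodes an adhesion scaffold protein (0.044), Cyp4f39, a cytochrome P450 gene (0.046), and Naip5, a sensor of bacterial flagellin (0.052). The gap is the larger of the differences in KO 4 minus WT and KO 22 minus WT over the 3 arrays. Within a gap of 0.1 lay 9 genes.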
